A study of Caenorhabditis elegans with 6 samples.

Results

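A set of 8 small antimicrobial peptide genes of the *C. elegans* epidermis was followed in whole worms labelled as overexpressing *fmo-4* and in wild type (WT) worms. The genes were taken by name as a set used to read out epidermal damage: *nlp-27*, *nlp-28*, *nlp-29*, *nlp-30*, *nlp-31*, *nlp-34*, *cnc-2* and *cnc-4*, which are 8 of the 20138 genes in the count table. RNA sequencing covered 3 libraries labelled *fmo-4* OE, here OE-labelled or OE, and 3 WT libraries. All came from untreated day 1 adults raised from the egg on NGM plates with OP50 bacteria, and both groups shared that diet and stage. The OE strains of the study carried *fmo-4* on multicopy arrays integrated at random sites, driven either by the broadly active *eft-3* promoter or by the hypodermal *dpy-7* promoter, and the labels do not say which of them was sequenced.

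The worm epidermis, or hypodermis, lies beneath the cuticle and meets both wounds and the fungus *Drechmeria coniospora*, whose spores stick to the cuticle and pierce it. Infected or wounded epidermis switches on *nlp* genes, which encode short peptides rich in glycine and aromatic residues, and the related caenacin (*cnc*) genes. *nlp-29*, the best-known reporter of the response, is driven through a p38 MAP kinase cascade that ends in the kinase PMK-1 and in the STAT-like factor STA-2, and it also responds to high salt and to loss of the collagens that form the annular furrows of the cuticle. *cnc-2* depends instead on a TGFβ pathway whose ligand is DBL-1.

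Library totals ran between 17576872 and 22675429 reads in the OE-labelled libraries and between 17768502 and 24943501 reads in WT libraries. *fmo-4* itself had 372, 476 and 368 reads in the OE-labelled libraries, against 522, 397 and 525 reads in WT libraries, so its counts were not higher under the OE label (log2 fold change -0.24, SE 0.18, adjusted p = 0.947 with the quasi-likelihood test of edgeR). OE therefore stands for the label throughout, and each direction given here is that of the label. All cell types contribute to a whole-worm library, and fewer cells of a type and less RNA per cell cannot be told apart in it. Markers of hypodermis, intestine, body wall muscle, neurons and germline had reads in every library. The markers that moved most with the label were those of sperm, which summed to 113 to 163.0 normalized counts in OE and 85.9 to 584 in WT (5 tested, median log2 fold change -1.58), and of the early embryo, which summed to 174 to 199.5 in OE and 115 to 156 in WT (3 of 5 tested, median 1.05, values of the groups not overlapping for the 3, against 11.1% of all genes tested). The libraries fell into 3 with a low and 3 with a high value for the share of reads that fell in genes with a deposited length under 600 bases, with the peptide genes left out. This share was 5.10, 7.86 and 7.42% in OE replicates 1 to 3, against 4.99, 5.18 and 7.98% in WT replicates 1 to 3.

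None of the 8 peptide genes differed between the labels by more than the spread of the libraries. The spread itself was the main feature of these genes. Their reads added up to 390, 1128 and 1022 in OE replicates 1 to 3, which is 22.2, 49.8 and 47.9 CPM (reads scaled to the library total), against 303, 299 and 1551 reads, which is 15.1, 16.8 and 62.2 CPM, in WT replicates 1 to 3. The set was thus high in WT replicate 3 and in OE replicates 2 and 3, low in WT replicates 1 and 2 and intermediate to low in OE replicate 1.

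Of the 8 genes, 6 form one cluster on chromosome V. In the deposited coordinates, whose genome build is not given in the sources used here, *nlp-34* (B0213.17) lies at 3978829 to 3979134 on the minus strand. The other 5 follow on the plus strand, with *nlp-31* (B0213.6) at 3980055 to 3980617, *nlp-30* (B0213.5) at 3981980 to 3982745, *nlp-29* (B0213.4) at 3984413 to 3984849, *nlp-28* (B0213.3) at 3987900 to 3988314 and *nlp-27* (B0213.2) at 3989091 to 3989770. The 2 caenacin genes lie together elsewhere on chromosome V, *cnc-4* (R09B5.9) at 1447222 to 1447707 on the plus strand and *cnc-2* (R09B5.3) at 1449667 to 1450189 on the minus strand. A WBcel235 gene annotation gives each of the 8 a coding sequence of between 177 and 225 bases, with at most 2 exons in a transcript. The gene models used for counting were 260 to 718 bases long, and no other listed gene overlapped any of them. The peptides of the cluster resemble one another, and how reads that match more than 1 gene were counted is not given, so the division of reads among neighbours is less certain than their sum.

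*nlp-27* lies at the far end of the cluster and encodes another of its infection-induced peptides. Normalized counts, which are reads divided by the relative effective library size, were 218, 391.5 and 387 for *nlp-27* in OE replicates 1 to 3, against 146, 122 and 426 in WT replicates 1 to 3. The top value belonged to a WT library and the lowest pair also belonged to WT, so the groups overlapped. The means were 332 ± 98.8 in the OE-labelled libraries and 231 ± 169.0 in WT libraries (SD, n = 3 each). The log2 fold change, OE over WT, was 0.52, with SE 0.50 and a 95% confidence interval between -0.66 and 1.70 (edgeR adjusted p = 0.956). The 1.44-fold difference thus lay within the replicate error.

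*nlp-28*, its neighbour in the cluster, had normalized counts of 65.2, 234 and 174 in the OE-labelled libraries, against 44.5, 65.5 and 321 in WT libraries. The WT values differed among themselves by 7.21-fold. The means were 158 ± 85.6 in OE and 144 ± 154.0 in WT (SD, n = 3 each). The log2 fold change was 0.13 (SE 0.80, 95% interval between -1.76 and 2.02, edgeR adjusted p = 0.980).

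*nlp-29*, the standard reporter of epidermal infection and wounding, varied most. It had 19.4, 135 and 114 normalized counts in the OE-labelled libraries, against 19.2, 6.78 and 187 in WT libraries. Low and high libraries occurred under both labels, with a range of 6.94-fold within OE and of 27.5-fold within WT. The WT extremes were 6 reads in replicate 2, for which the exact 95% Poisson interval is 2.20 to 13.1 reads, and 212 reads in replicate 3, with an interval of 184 to 242 reads. Such intervals cover counting error only, and they lie far apart. The mean was 89.6 ± 61.6 in OE and 70.8 ± 100.4 in WT (SD, n = 3 each), and the log2 fold change was 0.33 with SE 1.15 and a 95% interval between -2.41 and 3.07 (edgeR adjusted p = 0.968). A change of several-fold in either direction lay inside that interval.

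*nlp-30*, another infection-induced gene of the cluster, was expressed at a low level. Its normalized counts were 9.15, 26.2 and 19.1 in the OE-labelled libraries, against 13.2, 12.4 and 37.0 in WT libraries, with each label holding high and low values. The means were 18.2 ± 8.58 in OE and 20.8 ± 13.95 in WT (SD, n = 3 each). The log2 fold change was -0.20 (SE 0.59, 95% interval between -1.57 and 1.17, edgeR adjusted p = 0.965).

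*nlp-31*, whose peptide kills fungi and bacteria in culture, had 83.4, 172 and 156 normalized counts in the OE-labelled libraries, against 43.5, 56.5 and 200 in WT libraries. All 3 values under the OE label lay between the low pair of WT libraries and WT replicate 3. The means were 137 ± 47.4 in OE and 99.9 ± 86.7 in WT (SD, n = 3 each), and the log2 fold change was 0.45 (SE 0.60, 95% interval between -0.95 and 1.86, edgeR adjusted p = 0.956).

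*nlp-34* and *cnc-2* had too few reads to pass the filter on low counts. *nlp-34*, the minus-strand gene at the near end of the cluster, had 1, 7 and 3 reads in the OE-labelled libraries, against 5, 5 and 12 reads in WT libraries. The exact 95% Poisson interval of its single read in OE replicate 1 reached 5.57 reads, so a difference from the 5 reads of WT replicates 1 and 2 was not detectable at this depth. *cnc-2*, the caenacin gene that answers to the DBL-1 pathway, had 2, 9 and 2 reads in the OE-labelled libraries, against 1, 2 and 16 reads in WT libraries. WT replicate 3 again held the most reads for both genes. In a fit without the filter the log2 fold change was -0.93 for *nlp-34* (edgeR adjusted p = 0.868) and -0.43 for *cnc-2* (edgeR adjusted p = 0.964).

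*cnc-4*, the caenacin gene beside *cnc-2* that is also induced by infection, had 46.9, 82.4 and 119.3 normalized counts in the OE-labelled libraries, against 34.4, 66.7 and 170 in WT libraries. Each OE value lay within the range of the WT values. The means were 82.9 ± 36.2 in OE and 90.3 ± 70.7 in WT (SD, n = 3 each), and the log2 fold change was -0.13 (SE 0.60, 95% interval between -1.52 and 1.27, edgeR adjusted p = 0.976).

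**Figure D1:**
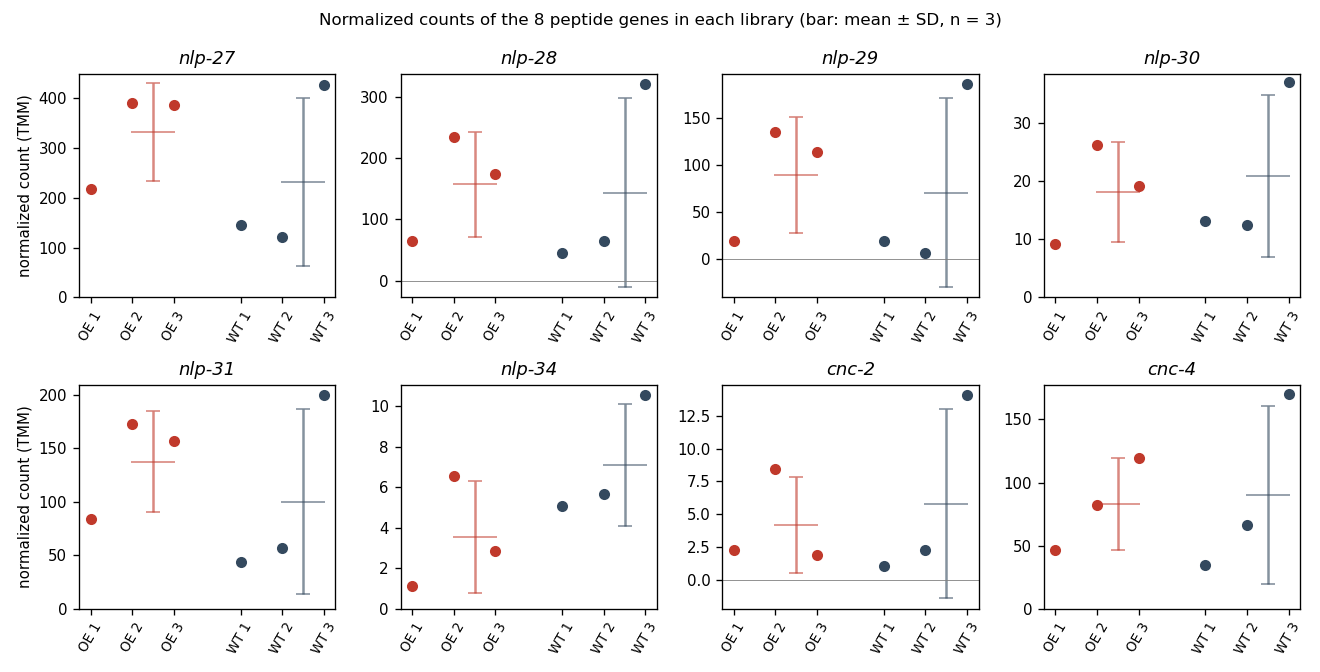
Normalized counts (y axis, linear, own scale for each gene) of the 8 peptide genes in the 3 OE-labelled libraries (OE, left) and the 3 WT libraries (right). Points are libraries, and bars show the mean ± SD of 3 libraries. In each panel WT replicate 3 is the highest point, and the values of both groups overlap.

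Of the peptide genes, 6 passed the filter and were tested, and 0 of these 6 had an unadjusted p under 0.05 or an adjusted p under 0.05 in the edgeR fit. DESeq2 also called 0 of the 6 at either threshold, where it called 8.25% of all genes at the unadjusted and 0.686% at the adjusted one. In the edgeR fit of all 13413 genes, 7.34% had an unadjusted p under 0.05 (4.32% higher and 3.01% lower under the OE label) and 0.0447% an adjusted p under 0.05. The values of the groups overlapped for all 8 peptide genes, so 0 of 8 were free of overlap, beside that background of 11.1%. Of the 6 log2 fold changes, 4 were positive and 2 negative, with a median of 0.23, and the median over all genes tested was -0.02.

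These values rested on WT replicate 3. Without it, the median log2 fold change of the 6 genes was 1.38, with 2.76 for *nlp-29*, 1.52 for *nlp-28*, 1.45 for *nlp-31*, 1.31 for *nlp-27*, 0.71 for *cnc-4* and 0.51 for *nlp-30*. In that fit 4 of the 6 had an unadjusted p under 0.05 in the higher direction, where 5.26% of all 13794 genes did, and 0 had an adjusted p under 0.05 (lowest 0.570 by edgeR), against 0.0362% of all genes. The signs of *nlp-30* and *cnc-4* turned from negative to positive. WT replicate 3 was the highest library for all 8 peptide genes but for 20.7% of all genes tested. Its removal therefore had to raise the fold changes of the set, and the share over all genes is not a like comparison. With each of the other 5 libraries left out in turn, the median was 0.63 without OE replicate 1, -0.11 without OE replicate 2, 0.09 without OE replicate 3, -0.22 when WT replicate 1 was dropped and -0.21 when WT replicate 2 was.

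**Figure D2:**
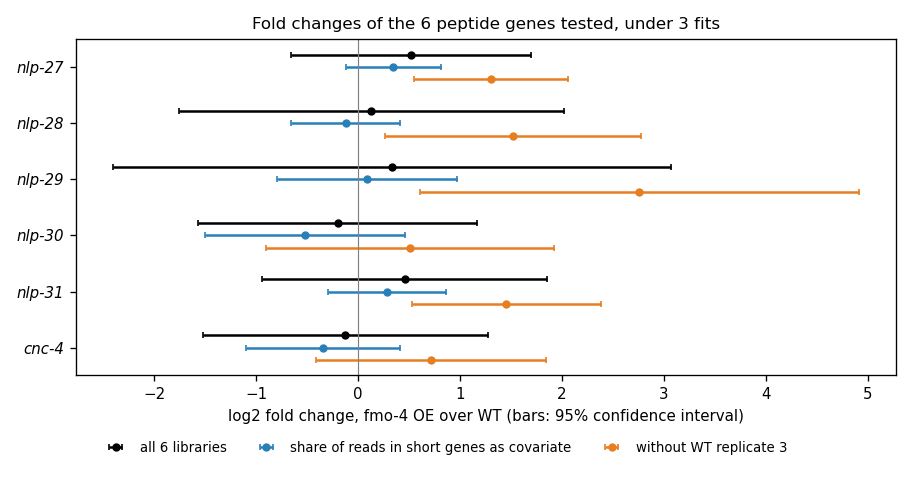
The log2 fold change of OE over WT (x axis) with its 95% confidence interval for the 6 peptide genes tested (rows), in 3 fits: with all 6 libraries (black), with the percent of reads in short genes as a covariate (blue) and without WT replicate 3 (orange). With all libraries each interval spans 0, whereas without WT replicate 3 the intervals of *nlp-27*, *nlp-28*, *nlp-29* and *nlp-31* lie above 0.

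The 6 tested peptide genes were more variable among libraries of one label than most genes. The ratio of the highest to the lowest WT library was 27.5 for *nlp-29*, 7.21 for *nlp-28*, 4.93 for *cnc-4*, 4.59 for *nlp-31*, 3.49 for *nlp-27* and 2.97 for *nlp-30*, where the median gene tested had 1.51. Among the OE-labelled libraries the same ratio was 6.94 for *nlp-29*, 3.59 for *nlp-28*, 2.87 for *nlp-30*, 2.54 for *cnc-4*, 2.07 for *nlp-31* and 1.79 for *nlp-27*, where the median gene had 1.43. For *nlp-29*, 97.7% of the genes tested had a smaller range within OE and 99.4% a smaller range within WT. *nlp-27*, the most even of the set within OE, still exceeded 71.6% of genes there and 89.6% within WT. The biological coefficient of variation fitted to each gene was 0.441 for *nlp-27*, 0.483 for *nlp-30*, 0.518 for *nlp-31*, 0.519 for *cnc-4*, 0.666 for *nlp-28* and 0.944 for *nlp-29*, against 0.297 for the common value over all genes.

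The genes varied together. WT replicate 3 was the highest library for 8 of 8, as it was for 20.7% of all genes tested. WT replicate 3 with OE replicates 2 and 3 held the 3 highest values for 6 of 8, which were the 6 genes tested, and for 19.8% of all genes tested. The exceptions were *nlp-34* and *cnc-2*, in which WT replicate 3 and OE replicate 2 came first and OE replicate 3 was among the lower libraries, with 3 and 2 reads. This set of high libraries was commoner among short genes, with 41.7% of the 1495 tested genes under 600 bases and 17% of the 11918 longer ones. As a description over the 6 libraries, which differ in depth and in their share of short-gene reads, the log2 level of each gene tested correlated with the mean of the other 5 at r = 0.987 for *nlp-28*, 0.961 for *nlp-31*, 0.940 for *nlp-29*, 0.930 for *nlp-27*, 0.877 for *nlp-30* and 0.862 for *cnc-4*.

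Within this common pattern the division of reads in the cluster varied from library to library, which was described and not tested. Of the reads of *nlp-27* to *nlp-31* together, *nlp-29* took 4.91, 14.1 and 13.4% in OE replicates 1 to 3, against 7.22, 2.58 and 15.9% in WT replicates 1 to 3. Its share was thus low in the 3 libraries where the summed reads were low, with Wilson 95% intervals of 3.09 to 7.73% in OE replicate 1 and 14.1 to 18.0% in WT replicate 3, which cover counting error and not the spread between libraries. *nlp-27* went the other way, with 55.2, 40.8 and 45.5% in the OE-labelled libraries and 54.8, 46.4 and 36.4% in WT libraries. Shares of the same sum offset one another, so the 2 trends are not independent. The Wilson 95% intervals for *nlp-27* overlapped between OE replicate 3 (42.3 to 48.8%) and WT replicate 2 (40.1 to 52.8%). *nlp-31* stayed between 16.3 and 21.5% in all 6 libraries. These shares do not depend on the scaling between libraries, although shared reads among similar genes could alter them. The genes also differ in deposited length, with 368 bases for *nlp-29* and 603 for *nlp-27*. The libraries with the higher *nlp-29* share were those with the higher share of reads in short genes. The part of gene length in these shares was not tested.

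Levels between genes were compared as RPKM, in which the reads of a gene are scaled to its deposited length and to the total of the library. Averaged over the 6 libraries the order was *nlp-27* with 22.4, *nlp-28* with 21.5, *nlp-31* with 12.7, *nlp-29* with 10.3, *cnc-4* with 10.1, *nlp-30* with 1.30, *nlp-34* with 0.973 and *cnc-2* with 0.656 RPKM. *nlp-27* spanned 18.0 to 31.6 RPKM in the OE-labelled libraries and 10.1 to 32.2 RPKM in WT libraries. *nlp-28* spanned 9.74 to 33.1 RPKM and 6.60 to 43.9 RPKM in the same order. The ranges of neighbours in this order overlapped, apart from the step between *cnc-4* and *nlp-30*. Within each of the 6 libraries, however, *nlp-28* was above *nlp-31*, with 9.74 against 9.31 RPKM in OE replicate 1 and 43.9 against 20.4 RPKM in WT replicate 3. *cnc-4* had at least 4.16 RPKM in every library and *nlp-30* at most 2.35 RPKM. *nlp-27* stood at the percentile 61.3 of the genes tested and *nlp-29* at 49.6, close to the middle, whereas *nlp-30* stood at 16.6. These peptide genes were therefore expressed in the worms of both labels, at ordinary levels for all but *nlp-30*, *nlp-34* and *cnc-2*.

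The share of reads in short genes moved with the peptide genes. Its 3 highest libraries were WT replicate 3 and OE replicates 2 and 3, the same as those of the 6 genes tested. These 3 were also the deepest libraries, with 24943501, 22675429 and 21336047 reads in that order, against at most 20020901 reads in the others. With this share as a covariate in the edgeR fit, the log2 fold changes were 0.35 for *nlp-27*, 0.29 for *nlp-31*, 0.08 for *nlp-29*, -0.12 for *nlp-28*, -0.34 for *cnc-4* and -0.52 for *nlp-30*, and the sign of *nlp-28* turned. The standard errors fell to 0.21 for *nlp-27*, 0.24 for *nlp-28*, 0.39 for *nlp-29*, 0.43 for *nlp-30*, 0.25 for *nlp-31* and 0.33 for *cnc-4*. The 95% interval of *nlp-29* then ran between -0.80 and 0.97 and that of *nlp-27* between -0.12 and 0.81, and 0 of the 6 had an unadjusted p under 0.05, against 9.14% of all genes in that fit. Whether short-gene share, depth and peptide level have a common source was not tested.

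An epidermal collagen had the same 3 libraries highest. *col-19*, an adult-specific cuticle collagen of the hypodermis and one of 8 hypodermal markers, of which *elt-3* is also in the signaling list, had 8668, 22642 and 22790.4 normalized counts in the OE-labelled libraries, against 9228, 11572 and 29617 in WT libraries. The summed level of the 8 markers was 13243, 27535 and 28656 in OE replicates 1 to 3, against 13726, 16396 and 33646 in WT replicates 1 to 3, and all 8 markers had reads. *col-19* made up most of that sum, and without it the other 7 summed to 4575, 4893 and 5865 in OE, against 4498, 4824 and 4029 in WT, with WT replicate 3 lowest. The 3 highest libraries of the peptide genes were those of 2 of the 8 markers, *col-19* and *col-10*, and of 19.8% of all genes tested. Among the 8 markers *elt-1*, a GATA factor of the epidermal fate, was the 1 with an unadjusted p under 0.05 (log2 fold change 0.96, edgeR adjusted p = 0.583). It was higher under the OE label and 0 markers were lower, where 4.32% of all genes were higher and 3.01% lower. *col-10* and *col-12* had log2 fold changes of 1.16 and 1.25 (edgeR adjusted p = 0.931 and 0.878). The part of *col-19* and other hypodermal RNA in the peptide gene levels was not tested.

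Further *nlp* and *cnc* genes of the epidermal response were measured, and those tested had the same libraries high and low. Of 14 such genes, 10 were in the table and 6 were tested, of which 0 had an unadjusted p under 0.05, with a median log2 fold change of 0.34. *nlp-33*, another infection-induced peptide gene, had 30.9, 293 and 294 normalized counts in the OE-labelled libraries, against 35.4, 52.0 and 513 in WT libraries. *nlp-24*, the most abundant of this list, had 256, 784 and 770.0 in OE and 284, 489 and 1419 in WT. WT replicate 3 and OE replicates 2 and 3 were the top 3 libraries for 6 of the 6 tested, and for 19.8% of all genes tested. The filter on low counts can favour this order, so the 6 of 6 is a description only. *cnc-3*, with 3, 65 and 49 reads in OE and 6, 7 and 54 in WT, passed through those 3 libraries alone. Among the 6 tested the log2 fold changes were -0.28 for *nlp-24*, 0.04 for *nlp-33*, 0.15 for *nlp-26*, 0.54 for *cnc-8*, 0.84 for *cnc-3* and 1.18 for *cnc-10*. Without WT replicate 3 their median was 2.25. The 4 listed but not tested had at most 10 reads in a library. Among them *nlp-25*, with 4, 5 and 10 reads in OE and 3, 0 and 4 in WT, and *cnc-7*, with 0, 5 and 2 reads in OE and 3, 1 and 0 in WT, had other libraries highest.

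**Figure D3:**
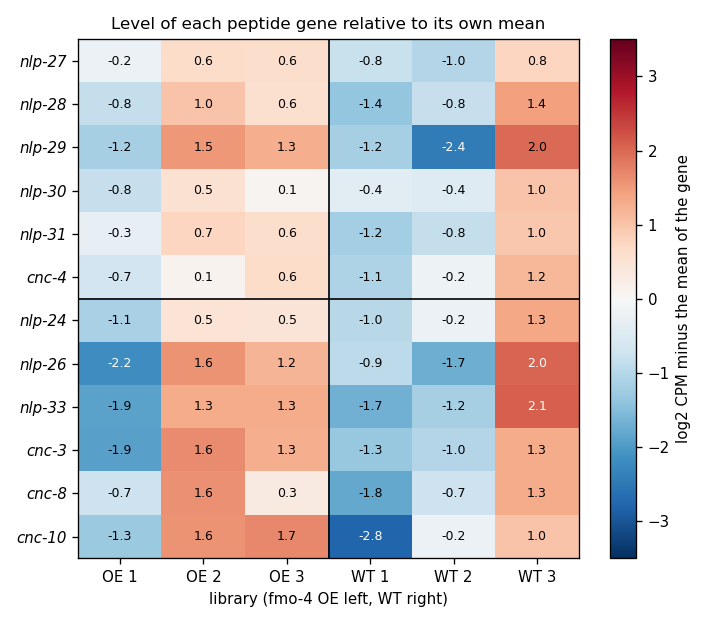
The log2 CPM of each gene minus its own mean over the 6 libraries (colour and printed value) for the 6 tested peptide genes (top) and the 6 tested other epidermal *nlp* and *cnc* genes (bottom). Columns are the OE-labelled libraries (left) and WT (right). OE 2, OE 3 and WT 3 are positive in every row, and OE 1, WT 1 and WT 2 are negative in every row.

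All 23 listed genes known to act in epidermal immune signaling were tested, and 0 had an unadjusted p under 0.05, where 7.34% of all genes did. Their log2 fold changes ran between -0.55 for *snf-12*, which encodes a transporter-like protein that acts with STA-2, and 0.33 for *tir-1*, which encodes the adaptor at the head of the p38 cascade, with a median of -0.09. The kinase gene *pmk-1* had 408, 333 and 342 normalized counts in the OE-labelled libraries, against 398, 336 and 249 in WT libraries (log2 fold change 0.14). *sta-2* had 241, 144 and 133 in OE and 287, 207 and 155 in WT (log2 fold change -0.33), and *dbl-1* had 106, 123 and 112 in OE and 143, 118 and 140 in WT (log2 fold change -0.23). The 3 highest libraries of the peptide genes were also those of 2 of these 23 genes, and of 19.8% of all genes tested.

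A pair of stimuli known to induce *nlp-29* were looked at through their own genes. Of the 6 annular furrow collagen genes, whose loss is known to induce *nlp-29*, 5 were tested and 4 were higher under the OE label at an unadjusted p under 0.05, with 0 lower and a median log2 fold change of 2.18. Of all genes tested 4.32% were higher at that threshold. Embryo markers were also higher under the label, and sperm markers had a negative median with overlapping groups. The part of either here was not tested. The 4 collagen genes were *dpy-2* (2.27), *dpy-3* (2.64), *dpy-7* (2.18) and *dpy-10* (1.64), and the lowest of their adjusted p values by edgeR was 0.583. The 3 highest libraries of the peptide genes were those of 0 of the 5, and of 19.8% of all genes tested. *dpy-7*, as an example, had 133, 359.7 and 442 normalized counts in the OE-labelled libraries, against 17.2, 162 and 29.9 in WT libraries. WT replicate 3, the highest for the peptides, was thus among the lowest for *dpy-7*. Of the 8 tested osmotic response genes 0 had an unadjusted p under 0.05, with a median log2 fold change of 0.03. *gpdh-1*, the glycerol enzyme gene induced by high salt, had 271, 268 and 82.1 normalized counts in OE and 300, 120 and 124 in WT (log2 fold change 0.19).

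Immune effectors of the gut served as a comparison outside the epidermis. Of 8 tested, 1 was higher and 1 lower at an unadjusted p under 0.05, where 4.32% of all genes were higher and 3.01% lower. The 8 log2 fold changes ran between -0.59 for *irg-5* and 1.25 for *T24B8.5*, with a median of 0.02. The higher one at that threshold was *T24B8.5*, a target of the intestinal p38 pathway (log2 fold change 1.25, edgeR adjusted p = 0.655). It had only 4 to 30 reads in a library. The lower one was the lysozyme gene *lys-8* (log2 fold change -0.46, edgeR adjusted p = 0.634). The 3 highest libraries of the peptide genes were those of 1 of the 8, and of 19.8% of all genes tested.

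**Figure D4:**
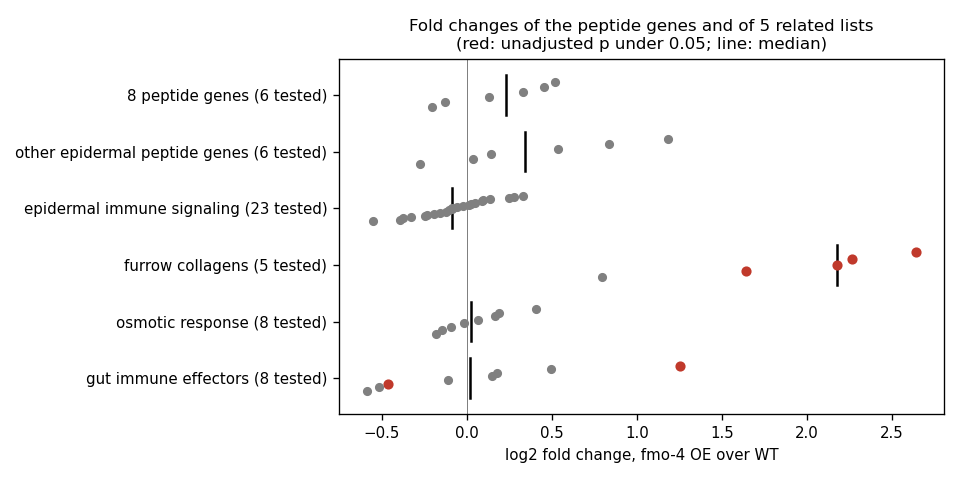
The log2 fold change of OE over WT (x axis) for each tested gene of the peptide set and of 5 related lists (rows). Red points have an unadjusted p under 0.05, grey points do not, and the vertical line is the median of the list. The 6 peptide genes lie between -0.20 and 0.52, and 4 of the 5 furrow collagens are red on the right.

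The 5 genes outside the set whose log2 levels over the 6 libraries were most like the mean of the 6 tested peptide genes, among 8674 genes with a mean normalized count of at least 100, were *ucr-11* (Pearson r = 0.998), *tdrd-3* (0.997), *cdc-73* (0.997), *scyl-1* (0.996) and B0546.3 (0.995). *ucr-11* encodes a subunit of mitochondrial complex III and *cdc-73* a subunit of the PAF1 transcription complex. Of the 8674 genes, 456 had an r of at least 0.95, so the pattern was not confined to the peptide genes. In these 5 genes the highest and lowest WT libraries differed by 1.41-fold to 2.18-fold, a smaller range than in any of the 6 tested peptide genes.

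The *nlp* cluster lies beside genes without reads under the OE label. A run of 10 genes between 3936374 and 3973001 on chromosome V, from *cyp-35A5* to *cyp-34A10* and mostly cytochrome P450 genes, had 0 reads in total in each of the 3 OE-labelled libraries, against 922 to 980 reads in each WT library. The run ended 5828 bases before *nlp-34*, with no listed gene between them. The 6 *nlp* genes, by contrast, had reads in each library of both labels, and *nlp-31*, the next in the cluster, had 421 reads summed over the 3 OE-labelled libraries and 320 over the 3 WT libraries. *nlp-34*, nearest to the run, had 11 and 22 reads in the same order.

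**Figure D5:**
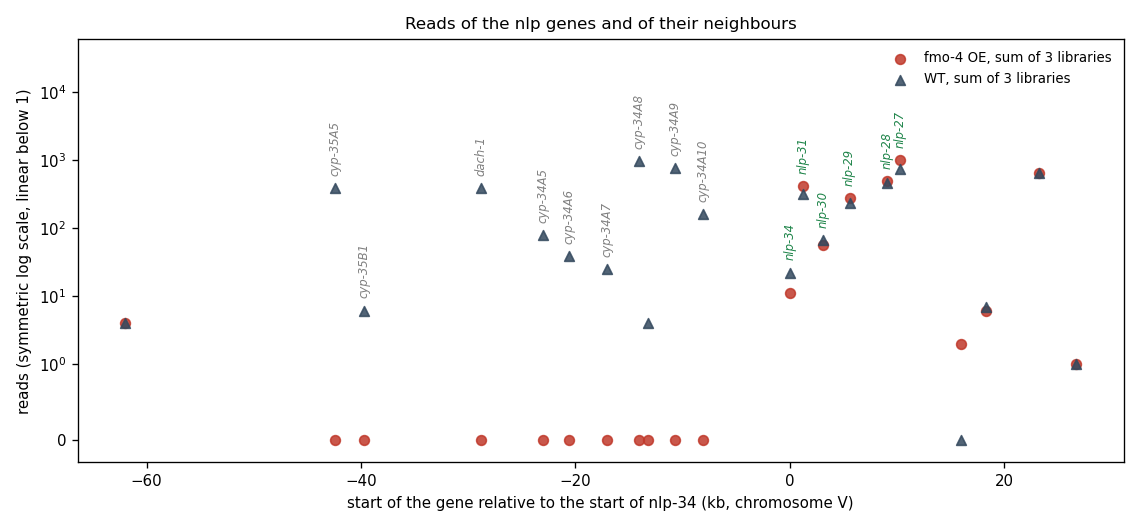
Reads summed over the 3 OE-labelled libraries (red circles) and the 3 WT libraries (dark triangles) on a symmetric log scale, against the start of each gene relative to the start of *nlp-34* in kb. The 10 genes to the left of *nlp-34* from *cyp-35A5* on have 0 reads under the OE label, and the 6 *nlp* genes (green names) have reads under both labels.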

How the data were processed

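Day 1 adult worms were sequenced as 3 libraries labelled *fmo-4* OE and 3 WT libraries, which the labels call biological replicates without naming what was separate, so p-values measure the spread between these libraries. mRNA was taken on poly-T beads. The submitters' processing notes name fastp, HISAT2, StringTie and featureCounts. Versions, genome build, strand setting and the treatment of multimapping reads are not given in the sources used here. The authors deposited raw read counts per gene. Their normalized values, fold changes and p-values were not used, nor were 66 further columns of single-library values. Of 20138 genes, 19815 matched RefSeq WBcel235 by sequence name, from which symbols were taken. Exon structure and coding lengths of the peptide genes came from a separate WBcel235 gene annotation.

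The count test was that of edgeR 4.0.16 under R 4.3.3 (filterByExpr, TMM, robust glmQLFit and glmQLFTest, no covariate, threshold 0.05, Benjamini-Hochberg over 13413 genes). TMM factors were 1.03, 0.972 and 1.01 in *fmo-4* OE and 1.02, 1.03 and 0.941 in WT. The SE is the log2 fold change over the square root of F. Log2 CPM used a prior count of 2. Alternatives were DESeq2 1.42.0, other scalings and filters, a replicate block, the share of reads in genes under 600 bases as a covariate, and each library left out. The deposited depth gave 16991 to 18062 genes with a read per library. The most alike genes were the 5 with the highest correlation. Listed genes were named where their unadjusted p was under 0.05, plus up to 3 per list for their role, and other genes were chosen with their values in view. The genes and lists were chosen with earlier results of these data known.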

Additional observations from a re-analysis of the deposited data

How the results depend on the processing

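Under the 13 alternatives *nlp-27* and *nlp-31* kept a positive log2 fold change, with ranges of 0.21 to 1.31 and 0.08 to 1.45, and 0 of the peptide genes had an adjusted p under 0.05. The signs of the other 4 tested turned under some settings, and the cause was not tested. Leaving out each library in turn gave ranges of -0.31 to 1.52 for *nlp-28*, -0.21 to 2.76 for *nlp-29*, -0.57 to 0.51 for *nlp-30* and -0.53 to 0.71 for *cnc-4*. The median of all 6 peptide genes tested ran between -0.22 and 1.38 in these fits, with 0 to 4 of the 6 higher at an unadjusted p under 0.05. The highest values came without WT replicate 3. The covariate for short-gene reads gave -0.12 for *nlp-28*. *nlp-29* and *nlp-30* were not tested where at least 10 counts were asked of every library.

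With the replicate number as a block the median log2 fold change of the peptide genes tested was 0.58, against 0.23 without it. *nlp-29* had 0.87, *nlp-31* 0.71, *nlp-27* 0.69, *nlp-28* 0.47, *cnc-4* 0.056 and *nlp-30* -0.15. In that fit 0 peptide genes had an unadjusted p under 0.05 by edgeR, and the lowest was 0.107 for *nlp-27*. The calls over all genes at an adjusted p under 0.05 were 2 higher and 3 lower, against 2 and 4. Same-numbered libraries correlated in their deviations at 0.43, -0.31 and 0.36, and *fmo-4* OE replicate 2 correlated best with WT replicate 3 (0.51). The library names rise with the replicate number in both groups, and whether same-numbered libraries were made together is not given. With so few libraries these correlations cannot settle pairing, and the main fit left the numbers unpaired.

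For all genes tested, calls at an adjusted p under 0.05 were 2 higher and 4 lower. DESeq2 gave 44 higher and 48 lower, the short-gene covariate 7 and 7, and at least 10 counts in every library 0 and 0. Without TMM factors 0 were higher, without the filter 4 were higher, and leaving out a library gave 0 to 51 higher and 0 to 80 lower. Depth limited *nlp-34* and *cnc-2*, with at most 16 reads in a library.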
